A study of Mus musculus with 4 samples.

Results

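The genes described are the interferon ligand, the interferon receptor chains and the suppressors of cytokine signalling of mouse mammary tumour cells with and without Pak1, the p21-activated kinase 1. They were chosen by name: every non-control array probe whose gene name was Ifnb1, Ifnar1, Ifnar2, Ifngr1, Ifngr2, Il10rb, Socs1, Socs2 or Socs3. These 9 genes are 9 of 31896 gene or transcript names on the array and have 13 of its 39429 probes. Ifnar1 and Socs2 have 3 probes each and the other 7 genes have 1 each. The probe brightest over all arrays stood for its gene.

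Tumour-derived breast cancer cells of MMTV-Neu mice were used, in which the mouse mammary tumour virus promoter directs the Neu (Her2) oncogene to the mammary epithelium. The Pak1-/- group had 2 samples and the Pak1+/+ group had 2, and the design states that the samples of a group came from different tumours. All cells carried the Neu transgene, were grown in low calcium medium with 5% horse serum, were serum starved for 3 h and received EGF for 15 min before RNA extraction, so that no sample without EGF or without Neu is compared here. The ages of the mice were not given, and each sample is a tumour cell culture rather than tissue.

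Type I interferons such as interferon beta act on a receptor made of IFNAR1 and IFNAR2, and interferon gamma acts on IFNGR1 and IFNGR2. IL10RB is the shared chain of the receptors for IL-10, IL-22 and the lambda interferons. The receptors carry JAK kinases that phosphorylate STAT proteins, and genes of the SOCS family, several of them STAT targets, encode proteins that limit the same receptors. Mammary epithelial cells use this machinery both for antiviral interferon responses and for prolactin and growth hormone signalling, in which Socs2 is a known feedback inhibitor.

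Genes of a pathway can also be its targets, which was not tested here for the described genes. The promoter stretches below are shown for their motif letters. They are the 250 bases before the RefSeq start site, 5′ to 3′, from GRCm38.p6, at chr4:88522795-88523044 (minus strand) for Ifnb1, chr16:10785537-10785786 (minus strand) for Socs1 and chr16:91546809-91547058 (plus strand) for Ifngr2. Capitals mark a kappaB match in Ifnb1, 2 overlapping matches to the core of the interferon-stimulated response element (ISRE; GAAA, any 2 bases, GAAA) in Socs1, and a kappaB match on the opposite strand in Ifngr2.
Ifnb1: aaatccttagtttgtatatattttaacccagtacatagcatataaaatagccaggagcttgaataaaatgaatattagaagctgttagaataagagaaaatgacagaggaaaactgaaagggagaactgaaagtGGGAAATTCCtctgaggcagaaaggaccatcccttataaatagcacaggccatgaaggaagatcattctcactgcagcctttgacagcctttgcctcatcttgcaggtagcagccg
Socs1: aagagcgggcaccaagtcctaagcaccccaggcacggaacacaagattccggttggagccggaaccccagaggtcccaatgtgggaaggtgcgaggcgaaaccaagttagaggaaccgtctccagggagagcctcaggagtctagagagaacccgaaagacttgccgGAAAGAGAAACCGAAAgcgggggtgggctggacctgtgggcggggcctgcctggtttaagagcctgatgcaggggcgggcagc
Ifngr2: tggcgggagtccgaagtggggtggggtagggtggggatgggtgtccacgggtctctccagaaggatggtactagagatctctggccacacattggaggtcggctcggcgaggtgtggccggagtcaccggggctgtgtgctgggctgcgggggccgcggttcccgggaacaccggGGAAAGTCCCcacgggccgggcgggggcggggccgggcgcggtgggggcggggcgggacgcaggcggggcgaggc

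Shorter stretches around matches to the gamma-activated site (GAS), TTCNNNGAA, which has the same letters on both strands, are shown in capitals for Socs3 at chr11:117969502-117969530 (minus strand), Ifnar2 at chr16:91372559-91372587 (plus strand) and Ifnar1 at chr16:91485200-91485228 (plus strand), all on GRCm38.p6.
Socs3: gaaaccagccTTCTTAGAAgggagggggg
Ifnar2: tgccaaggccTTCCTGGAAgaagagagta
Ifnar1: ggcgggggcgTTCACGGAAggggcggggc

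Windows from 250 bases before to 50 bases after the start were searched on both strands. The promoter table matched 7 of the 9 genes, all but Il10rb and Socs2. Of all 32851 windows in it, 8.3% held a GAS match, 3.44% an ISRE core match and 8.46% a kappaB match. The Socs1 cores began 83 and 77 bases before the start, the Ifnb1 kappaB match 116 bases and the Ifngr2 match 75 bases before it. The GAS match lay 154 bases before the start in Socs3, 214 bases before it in Ifnar2 and across the start itself in Ifnar1. The Ifngr1 window held none of the 3 motifs. These matches describe letters only, and no binding was measured.

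Of the 9 genes, Ifngr2, Ifnar1 and Socs1 were higher in the Pak1-/- cells, by 1.86-, 1.82- and 2.55-fold, and Socs2 and Socs3 were lower, by 4.6- and 3.02-fold. Ifnb1, Ifnar2, Ifngr1 and Il10rb did not pass the test. A gene was called at an adjusted p under 0.05 in limma, with p-values adjusted by the Benjamini-Hochberg method over all probes tested. The groups differed widely across the array: of 22000 genes tested, 51% were called, as were 51.9% of all probes tested. By direction 22.8% of genes were called higher and 28.2% lower, so that 3 higher and 2 lower of 9 genes, or 9 called of 13 probes, is no result about these genes as a set. Values of both groups did not overlap for 7 of the 9, against 77.6% of all genes tested. The median difference was 0.18 log2 over the 9 genes and -0.06 log2 over all genes tested. A called change of at least 2-fold was seen for Socs1, Socs2 and Socs3, against 12.6% of all genes tested. In bulk RNA, fewer cells of a type and less RNA per cell cannot be told apart.

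**Figure D1:**
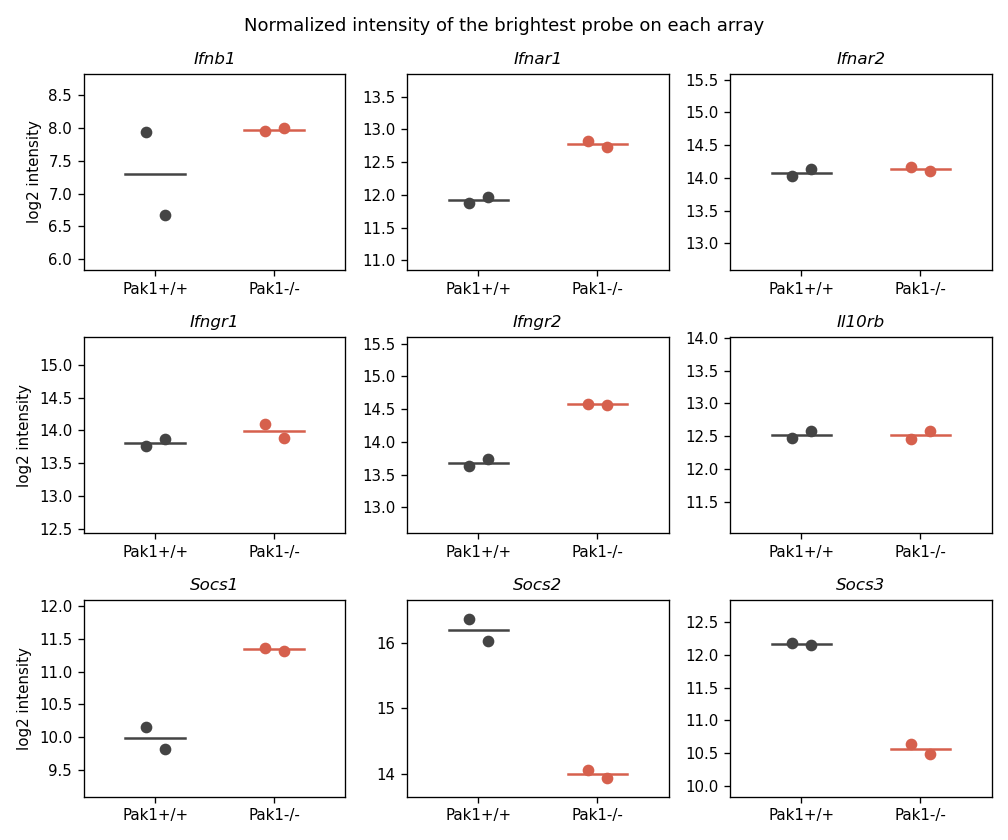
Normalized log2 intensity of the brightest probe of each gene on each array (points) with the group mean (bar), Pak1+/+ left and Pak1-/- right, each panel spanning the same number of log2 units around its own centre. Both Pak1-/- points lie above both Pak1+/+ points for Ifnar1, Ifngr2 and Socs1 and below them for Socs2 and Socs3, while 1 Pak1+/+ point of Ifnb1 lies far below the other.

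The arrays were alike in quality. The median spot intensity was 322 to 331, and 62.2% to 70.4% of probes were well above background, the lowest share on the array of Pak1+/+ replicate 2. The log2 values of replicates correlated across probes at r = 0.997 in both groups, and arrays of different groups at 0.954 to 0.959, with genes not being independent replicates. All 4 arrays lay on 1 slide, with the Pak1-/- arrays at the first positions and the Pak1+/+ arrays at the last, and the effect of slide position cannot be told apart from that of genotype. The Pak1 probe read 12.21 and 12.25 log2 on the Pak1-/- arrays and 12.04 and 12.04 log2 on the Pak1+/+ arrays, a difference of 0.19 log2 that was not called (adjusted p = 0.07 in limma). Whether this probe lies in the deleted part is not known, so that it does not check the labels, and each group is named here by its label. Of 10 epithelial markers, 9 were well above background on all 4 arrays, among them Epcam, Krt8 and Krt18. The same held for 7 of 13 leukocyte markers. The epithelial markers are not particular to the mammary gland and do not check that origin.

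Ifnb1 encodes interferon beta, the type I ligand that most cell types can make. Its probe (A_51_P144180, mm9 chr4:88168023-88168082, minus strand) read 7.958 and 7.997 log2 on the Pak1-/- arrays and 7.935 and 6.665 log2 on the Pak1+/+ arrays. The Pak1+/+ arrays were far apart, the higher of them was within 0.1 log2 of the Pak1-/- arrays, and the lower was not well above background. The difference was 0.68 log2 (SE 0.42, 95% interval -0.44 to 1.79, adjusted p = 0.24 in limma). Without Pak1+/+ replicate 2, the dim array, the difference was 0.04 log2. Without Pak1+/+ replicate 1 the fitted value was 1.31 log2 (adjusted p = 0.0026 in limma), but the group then holds the dim array alone, which is assumed to vary like the Pak1-/- pair and gives no measured level, so that this is neither a measured size nor a call to rest on.

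The other ligands gave few calls. Of 17 listed type I ligands other than Ifnb1, 13 had a probe and 11 were tested, with 0 higher, 1 lower and 10 not called, and a median of 0.01 log2. The called one was Ifna7, an interferon alpha gene, at 7.14 and 7.08 log2 in Pak1-/- against 7.51 and 7.45 log2 in Pak1+/+ (difference -0.37 log2, SE 0.07, adjusted p = 0.012 in limma). Its values lie near the lowest that counted as well above background, which were 6.55 to 7.03 log2 over the arrays. The alpha genes are near-identical copies, so that probes for them may also read other members. Interferon gamma (Ifng) was at background level on all 4 arrays. The lambda interferon Ifnl3 differed by 0.11 log2 (adjusted p = 0.35 in limma).

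Of 11 factors that act in induction of Ifnb1, 4 were higher, 4 lower and 3 not called. The transcription factor subunit Jun was higher by 2.51 log2, the cytosolic DNA sensor Mb21d1 (cGAS) by 1.18 log2 and the adaptor Ticam1 by 0.53 log2, and the NF-kappaB subunit Rela by 0.52 log2. The kinase Ikbke, the adaptor Tmem173 (STING) and the kinase Tbk1 were lower, at -0.74, -0.35 and -0.34 log2. Calls in both directions were thus found among the genes upstream of the ligand, with a median of -0.12 log2. Such calls were common across the array, with 22.8% of all genes higher and 28.2% lower.

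Among the receptors, 1 chain of the type I and 1 chain of the type II interferon receptor was higher in the Pak1-/- cells and the partner chain was not called. Ifnar1 encodes the type I receptor chain that carries the kinase TYK2. Its brightest probe (A_55_P2036337, mm9 chr16:91510673-91510732, plus strand) read 12.83 and 12.74 log2 on the Pak1-/- arrays and 11.87 and 11.97 log2 on the Pak1+/+ arrays. Both Pak1-/- values lay above both Pak1+/+ values, and the difference was 0.86 log2 (SE 0.08, 95% interval 0.65 to 1.07, adjusted p = 0.0015 in limma).

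The other 2 Ifnar1 probes were also called higher, with smaller differences. Probe A_55_P2454784 (mm9 chr16:91506635-91506693) read 10.16 and 10.13 log2 in Pak1-/- and 9.60 and 9.71 log2 in Pak1+/+, a difference of 0.49 log2 (SE 0.08, adjusted p = 0.0066 in limma). The third probe, shown here because it covers 1587 bases of the genome with 60 bases of sequence and so reads spliced RNA, is A_55_P2438722 (mm9 chr16:91503764-91505350).
A_55_P2438722: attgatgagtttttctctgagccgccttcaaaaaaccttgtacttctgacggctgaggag

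That probe read 8.77 and 8.63 log2 in Pak1-/- and 8.06 and 8.30 log2 in Pak1+/+, with no overlap and a difference of 0.52 log2 (SE 0.11, adjusted p = 0.017 in limma). The 3 probes thus gave 1 direction and folds of 1.4 to 1.82.

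Ifnar2, the type I chain that binds interferon most tightly and carries JAK1, read 14.16 and 14.10 log2 in Pak1-/- and 14.02 and 14.14 log2 in Pak1+/+ (A_52_P190405, mm9 chr16:91394044-91394103). The groups overlapped, and the difference was 0.05 log2 (SE 0.08, 95% interval -0.16 to 0.26, adjusted p = 0.64 in limma). The interval lies below that of Ifnar1, although the difference between both genes was not tested.

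Ifngr2 is the signalling chain of the interferon gamma receptor and carries JAK2. It read 14.58 and 14.57 log2 on the Pak1-/- arrays and 13.63 and 13.73 log2 on the Pak1+/+ arrays (A_52_P471395, mm9 chr16:91563982-91564041). The Pak1-/- arrays were within 0.01 log2 of each other and well above both Pak1+/+ arrays. The difference was 0.89 log2 (SE 0.07, 95% interval 0.70 to 1.09, adjusted p = 0.0011 in limma), with the kappaB letters shown for its promoter standing beside it as sequence only.

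Ifngr1, the ligand-binding chain of the same receptor, read 14.10 and 13.88 log2 in Pak1-/- and 13.76 and 13.87 log2 in Pak1+/+ (A_51_P391445, mm9 chr10:19329923-19329982). The lower Pak1-/- value exceeded the higher Pak1+/+ value by less than the gap within either group. The difference was 0.18 log2 (SE 0.10, 95% interval -0.09 to 0.45, adjusted p = 0.21 in limma).

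Il10rb read 12.46 and 12.58 log2 in Pak1-/- and 12.47 and 12.57 log2 in Pak1+/+ (A_55_P2181109, mm9 chr16:91425744-91425803). The groups overlapped fully, with a difference of -0.002 log2 (SE 0.09, 95% interval -0.23 to 0.22, adjusted p = 0.99 in limma). Its partner in the lambda interferon receptor, Ifnlr1, was by contrast called: it read 13.54 and 13.55 log2 in Pak1-/- against 12.33 and 12.45 log2 in Pak1+/+, a difference of 1.16 log2 (SE 0.08, adjusted p = 0.00066 in limma).

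Ifnlr1 belongs to the other class II cytokine receptors and IL-10 family ligands, of which 9 of 12 were tested. Of these 2 were higher, 1 lower and 6 not called, against 22.8% of all genes higher and 28.2% lower. The second higher gene was F3, tissue factor, the structurally related starter of coagulation, by 1.95 log2 (adjusted p = 0.00033 in limma). The ligand Il24 was the lower one, at -0.79 log2 (adjusted p = 0.0014 in limma).

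**Figure D2:**
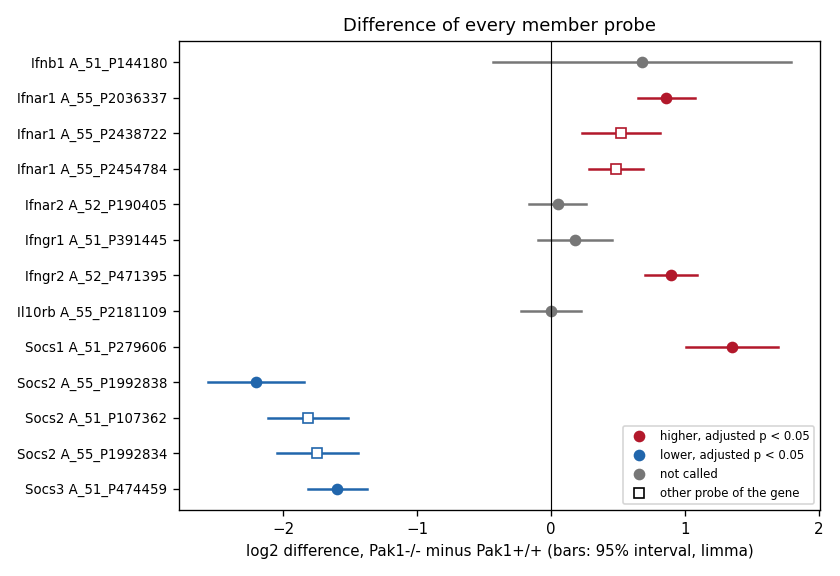
log2 difference, Pak1-/- minus Pak1+/+, of all 13 probes of the 9 genes with the 95% interval from limma; filled circles are the brightest probe of a gene and open squares its other probes. All 3 Ifnar1 probes lie right of 0 and all 3 Socs2 probes left of it, and the interval of Ifnb1, from -0.44 to 1.79, is the widest.

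Ifnar2, Il10rb, Ifnar1 and Ifngr2 lie next to each other in this order on chromosome 16. The called receptors, Ifnar1 and Ifngr2, are neighbours there, and the uncalled pair lies together on the other side. Of 10 listed neighbours, 8 were tested, with 3 higher, 1 lower and 4 not called. Across the array, 22.8% of genes were called higher and 28.2% lower. Tmem50b, next to Ifngr2, differed by 0.08 log2 (adjusted p = 0.64 in limma). Beyond it Dnajc28, a DnaJ family gene, was higher by 0.74 log2 on a dim probe, Gart, a purine synthesis enzyme, was lower at -0.36 log2, and Son, a splicing factor, was higher by 0.56 log2. Atp5o, a subunit of ATP synthase, was higher by 0.34 log2. The oligodendrocyte factors Olig1 and Olig2, at the Ifnar2 end, gave no signal well above background.

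**Figure D3:**
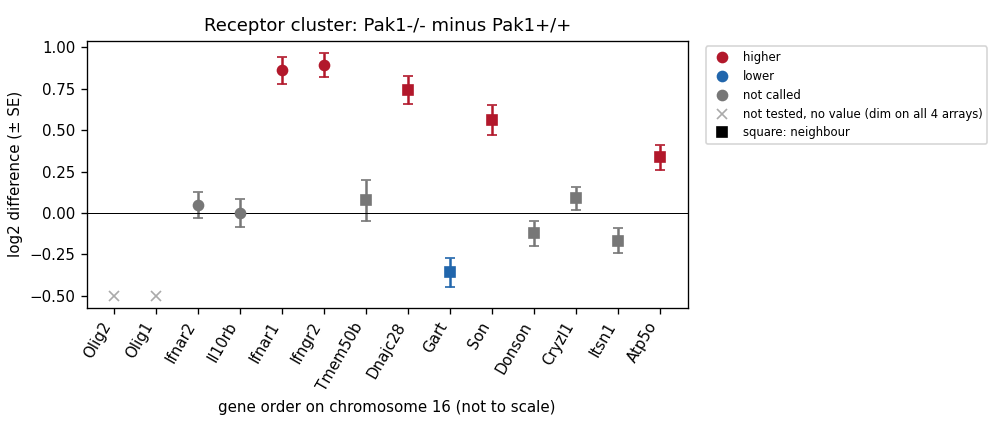
log2 difference, Pak1-/- minus Pak1+/+, with its SE from limma, of the receptor genes (circles) and neighbours (squares) in their order on chromosome 16, not to scale; crosses at the bottom edge are genes with no tested value. Ifnar1 and Ifngr2 stand at 0.86 and 0.89 log2, with Ifnar2, Il10rb and Tmem50b on either side close to 0.

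The SOCS genes gave calls in both directions. SOCS1 binds JAK kinases and blocks type I and type II interferon receptors. Its probe (A_51_P279606, mm9 chr16:10783951-10784010, minus strand) read 11.36 and 11.31 log2 on the Pak1-/- arrays and 10.16 and 9.82 log2 on the Pak1+/+ arrays. The groups did not overlap, and the Pak1+/+ arrays were farther apart than the Pak1-/- arrays. The difference was 1.35 log2 (SE 0.13, 95% interval 1.01 to 1.69, adjusted p = 0.0017 in limma), and 7.46% of all genes tested had a larger absolute difference. The Socs1 promoter is the 1 of the 7 searched with ISRE core letters.

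SOCS2 limits growth hormone and prolactin receptor signalling through STAT5. Socs2 had the largest difference of the 9 genes, and its brightest probe is shown because it carries that value (A_55_P1992838, mm9 chr10:94875468-94875527, minus strand).
A_55_P1992838: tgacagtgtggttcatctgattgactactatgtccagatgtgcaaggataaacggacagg

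It read 14.06 and 13.93 log2 on the Pak1-/- arrays and 16.37 and 16.03 log2 on the Pak1+/+ arrays. Both Pak1-/- values were below both Pak1+/+ values by far more than the replicates differed. The difference was -2.20 log2 (SE 0.14, 95% interval -2.56 to -1.84, adjusted p = 0.00054 in limma), and 2.95% of all genes tested had a larger absolute difference.

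The other Socs2 probes were lower too, by 3.51- and 3.35-fold. Probe A_51_P107362 (mm9 chr10:94875066-94875125), printed in 10 spots per array, read 13.37 and 13.23 log2 in Pak1-/- and 15.24 and 14.99 log2 in Pak1+/+ (difference -1.81 log2, SE 0.11, adjusted p = 0.00054 in limma). Its single spots ranged from 12.93 to 13.57 log2 on the Pak1-/- arrays and from 14.71 to 15.39 log2 on the Pak1+/+ arrays, without overlap. The spots of an array are copies that read the same sample, so that they add no replicates. Probe A_55_P1992834 (mm9 chr10:94875187-94875246) read 13.58 and 13.49 log2 in Pak1-/- and 15.42 and 15.14 log2 in Pak1+/+ (difference -1.75 log2, SE 0.12, adjusted p = 0.00063 in limma).

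SOCS3 binds the gp130 receptor chain and JAK kinases and is a STAT3 target. Its probe (A_51_P474459, mm9 chr11:117827480-117827539, minus strand) read 10.65 and 10.49 log2 on the Pak1-/- arrays and 12.18 and 12.15 log2 on the Pak1+/+ arrays. The groups did not overlap, and the gap between them exceeded 1 log2 unit. The difference was -1.60 log2 (SE 0.08, 95% interval -1.82 to -1.37, adjusted p = 0.00036 in limma), and 5.53% of all genes tested had a larger absolute difference.

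Of the other 5 SOCS family genes, 2 were higher, 1 lower and 2 not called, against 22.8% of all genes higher and 28.2% lower. Cish, like Socs2 a STAT5 target and inhibitor of the same receptors, read 12.22 and 12.12 log2 in Pak1-/- and 10.64 and 11.02 log2 in Pak1+/+ (difference 1.34 log2, SE 0.14, adjusted p = 0.0022 in limma). Its direction was opposite to that of Socs2. Socs4 was higher by 0.46 log2 (adjusted p = 0.04 in limma) and Socs6 lower at -0.74 log2 (adjusted p = 0.002 in limma). Socs5 differed by -0.002 log2 and Socs7 by 0.17 log2, neither of them called.

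The genes whose 4-array profiles were nearest to that of Socs2, out of 19135 searched, were Rsph1, Gm2291 and Ank. Their Euclidean distances on centred log2 values were 0.0757, 0.102 and 0.11. Rsph1, a component of ciliary radial spokes, had a difference of -2.13 log2, and Ank, which controls pyrophosphate outside the cell, one of -2.15 log2. With 4 arrays, such a profile amounts to a size and a direction, with little else.

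The receptors' signalling chain, read from its other genes, was mostly higher in the Pak1-/- cells. Of 12 genes, the JAK kinases, the STATs and Irf9, 7 were higher, 1 lower and 4 not called, against 22.8% of all genes called higher and 28.2% lower, with a median of 0.48 log2. Irf9 and Stat2, transcription factors of the type I response, were higher by 2.82 and 2.77 log2. The kinase Jak3 was the lower one, at -0.39 log2 (adjusted p = 0.012 in limma). The kinases named for the receptor chains split: Jak1 was higher by 1.35 log2 and Tyk2 by 0.55 log2, while Jak2 differed by -0.21 log2 (adjusted p = 0.056 in limma).

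The other negative regulators of JAK-STAT signalling had calls both ways, 3 higher, 5 lower and 4 not called of 12. By comparison, 22.8% of all genes were called higher and 28.2% lower. Usp18, an ISG15 protease that binds IFNAR2 and is itself an interferon target, was higher by 7.13 log2. Pias3 and Pias1, inhibitors of STAT proteins, were higher by 0.49 and 0.46 log2. The adaptor Sh2b3, the STAT inhibitor Pias2 and the phosphatase Ptpn2 were lower, at -0.96, -0.81 and -0.56 log2.

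All 20 listed type I interferon target genes were higher, by 2.11 to 8.01 log2 with a median of 6.14 log2, each by more than the 1.35 log2 of Socs1. Oas2, a sensor of double-stranded RNA, read 15.64 and 15.42 log2 in Pak1-/- and 7.50 and 7.54 log2 in Pak1+/+. Ifit3 and Ifit1, antiviral RNA-binding proteins, were higher by 7.66 and 7.25 log2. Mx1 and Rsad2 were not well above background on either Pak1+/+ array, which gives only bounds of at least 7.69-fold and at least 85.2-fold higher in Pak1-/-. Of 14 interferon gamma target genes tested, 11 were higher, 1 lower and 2 not called, with a median of 1.56 log2. Of all genes tested, 22.8% were called higher and 28.2% lower. The uncalled genes were Ciita, at 0.02 log2 (adjusted p = 0.93 in limma), and Cxcl11, at 0.25 log2. Ido1 was at background level on all 4 arrays. Psmb8 of the immunoproteasome was higher by 6.84 log2 (adjusted p = 4.6e-05 in limma), the GTPase Gbp3 by 6.54 log2 and the chemokine Cxcl10 by 4.72 log2. Irf8, a transcription factor of myeloid cells, was the lower one, not well above background on either Pak1-/- array and at least 40.8-fold lower there.

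The genes on the STAT3 and STAT5 side gave a mixed picture. Of 13 tested STAT3 and STAT5 target genes, 4 were higher, 4 lower and 5 not called, with a median of -0.21 log2. Over all genes tested, 22.8% were called higher and 28.2% lower. Fgl1, Il4ra and Osmr were higher by 1.03, 0.98 and 0.74 log2. The receptor Lifr was lower, at -1.45 log2, as were Ier3 and Cebpd, at -0.59 and -0.58 log2. Of 9 gp130 cytokines and receptors, 0 were higher, 1 lower and 8 not called: the lower one was the cytokine Clcf1, at -0.58 log2 (adjusted p = 0.011 in limma), and Il6 and Lif differed by 0.01 and 0.02 log2. Among the receptors that Socs2 and Cish act on, the growth hormone receptor Ghr was higher by 2.40 log2 (11.63 and 11.54 log2 against 9.22 and 9.14 log2), Epor was lower at -1.18 log2 and the prolactin receptor Prlr differed by -0.19 log2 (adjusted p = 0.082 in limma).

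**Figure D4:**
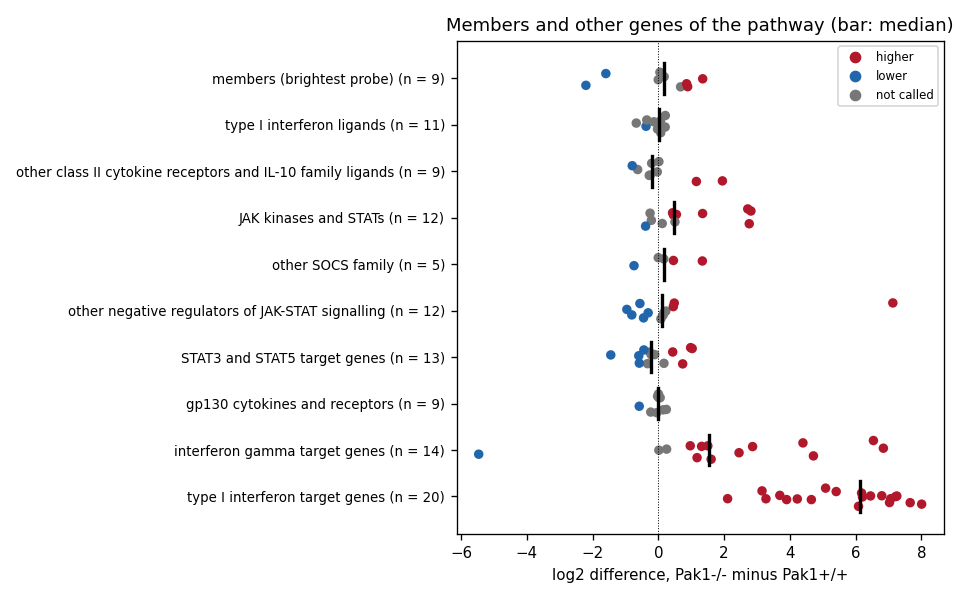
log2 difference, Pak1-/- minus Pak1+/+, of the 9 described genes and of each tested gene of 9 related lists (points, coloured by call at an adjusted p under 0.05 in limma), with the list median as a bar. The type I interferon target genes, with a median of 6.14 log2, lie right of all the described genes, which run from -2.20 to 1.35 log2.

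Markers of other cell types were set beside these results. Of 13 leukocyte markers, 7 were tested, with 0 higher, 2 lower and 5 not called; the summed level of the list was 18.3 and 17.9 log2 in Pak1-/- and 17.9 and 17.8 log2 in Pak1+/+, and 7 of the 13 were well above background on all 4 arrays. These were Ptprc, Adgre1, Cd3e, Itgam, Cd68, Csf1r and Siglech, of which the Siglech probe read 17.47 to 17.91 log2 and the Itgam probe 15.20 to 16.07 log2. Sums were taken on the linear scale, so that the leukocyte sum is mostly the Siglech probe, followed by the Itgam probe. Lyz2, Laptm5, Itgax and Cd3g were at background level on all 4 arrays. The macrophage marker Adgre1 was lower in Pak1-/- at 7.47 and 7.48 log2 against 8.44 and 8.60 log2, and Ptprc, the pan-leukocyte phosphatase, at 7.15 and 7.14 log2 against 7.59 and 7.60 log2. Of 8 fibroblast markers 3 were tested, and Col1a1 was higher by 1.11 log2, while Col3a1, Dcn, Lum and Pdgfrb were at background level on all 4 arrays; the summed level was 10.6 and 10.4 log2 in Pak1-/- and 10.3 and 10.2 log2 in Pak1+/+. Of 6 endothelial markers, 4 were tested and 0 called, with summed levels of 13.2 to 13.4 log2. Most of that sum came from the Kdr probe, at 12.99 to 13.27 log2. The epithelial markers had 5 higher and 1 lower of 10, with Krt14, a basal keratin, higher by 2.83 log2 and a summed level of 20.2 log2 on both Pak1-/- arrays and 19.9 log2 on both Pak1+/+ arrays. The part of leukocyte, epithelial and fibroblast markers in the differences of the interferon receptor and SOCS genes was not tested.

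Ifnar1, Ifngr2, Socs1, Socs2 and Socs3 kept direction and call under all 16 alternatives that gave a value, with differences of 0.62 to 0.93, 0.84 to 0.99, 1.18 to 1.52, -2.37 to -1.92 and -1.67 to -1.52 log2. With a 2-fold limit added to the threshold, Ifnar1 and Ifngr2 were no longer called, and Socs1, Socs2 and Socs3 were. Ifngr1 stayed uncalled at 0.07 to 0.29 log2, and Ifnar2 and Il10rb stayed uncalled with a sign that turned.

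**Figure D5:**
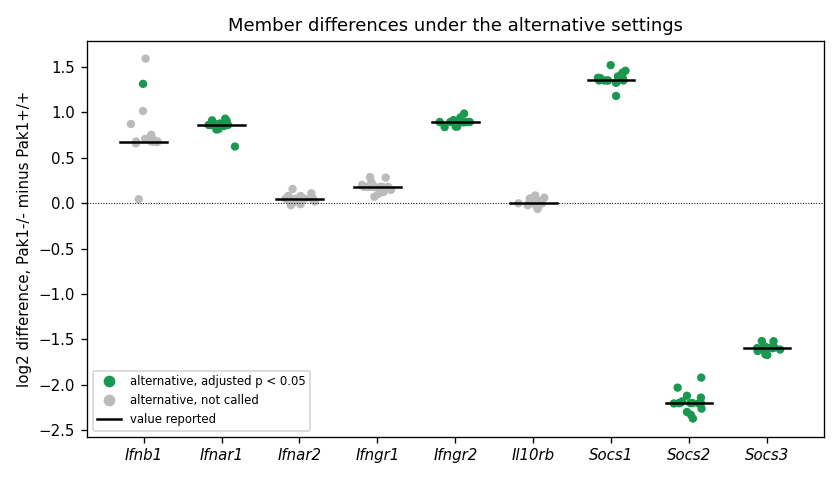
log2 difference, Pak1-/- minus Pak1+/+, of each gene under each alternative processing (points, green where the adjusted p was under 0.05 in limma) around the reported value (bar). The points of the 5 called genes are all green and on 1 side of 0, whereas those of Ifnb1 spread from 0.04 to 1.59 log2.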

How the data were processed

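Total RNA was measured on 1-colour (Cy3) arrays with 60-base probes in 4 samples, grouped by the genotype labels. The scanner files deposited by the authors give spot intensities on a linear scale, made with Feature Extraction 9.5.3.1 per the file headers and without normalization across arrays. A second deposited file has log2 values for 24008 of its 39485 rows, normexp corrected and quantile normalized according to the methods, and served as an alternative. How those rows were chosen is not given in the sources used here.

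Spot intensities were background corrected with normexp (offset 50), transformed to log2 and quantile normalized with limma 3.58.1 (R 4.3.3). Control and outlier spots were dropped and the spots of a probe averaged. A filter kept 27223 of 39429 probes, those that at least 2 arrays showed well above background. Genotype was the one term of a two-sided lmFit and eBayes test, with Benjamini-Hochberg adjustment and a threshold of 0.05. The methods give no offset, filter or adjusted threshold, and these were chosen for the present values. The offset shrinks differences of dim probes. Of these probes 14140 were called (51.9%). The fit has 2 residual degrees of freedom, so that the number of arrays limits the precision, and an exact permutation test of 2 against 2 cannot go below p = 0.333. The fit was tested on simulated data with known changes in a small part of the probes and independent noise. With 51.9% of probes called in the real data, that simulation does not check the calls.

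The genes and gene lists were chosen with earlier results of these data known. All 9 genes with every probe were named. Of each list, up to 3 genes called higher and up to 3 called lower with the largest differences were named, with uncalled genes where a list had no call, and the 3 nearest profiles to the gene with the largest difference. Other genes (Rela, Socs5, Socs7, Jak1, Jak2, Tyk2, Prlr, Mx1, Rsad2, Ciita, Cxcl11, Ido1, Tmem50b, Olig1, Olig2, Ifng, Ifnl3, Il6, Lif and the markers) were added after their values were seen. A gene that the rule names is not reported here. Where both arrays of a group were dim for a probe, its fold is a bound, taken from the mean of the bright group over a floor set on each dim array. The floor is the smallest value that counted as well above background there, or the probe's value if that is larger. Of 32334 probes with a RefSeq accession, 26055 matched a symbol; coordinates are those of the files (mm9). The gene models of that build were not used here, so that exons and UTRs of the probes are not given. The replicate numbers did not pair the samples (correlation of same-numbered deviations -0.03 across probes). The alternatives were other background corrections and normalizations, the deposited table, filters, variance priors, probe averaging, a replicate block, stricter thresholds and leaving out each array.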

Additional observations from a re-analysis of the deposited data

How the results depend on the processing

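Of 18 alternatives, 16 gave a difference for each of the 5 called genes, and in all 16 they kept direction and call. Every fit without 1 array leaves a group of 1, assumed to vary like the other. Without Pak1+/+ replicate 1, Ifnb1 had a fitted difference of 1.31 log2 (adjusted p = 0.0026 in limma), which rests on a lone Pak1+/+ array that was dim for this probe and is assumed to vary like the Pak1-/- pair. Over single left-out arrays it ran from 0.043 to 1.313 log2, and over all its alternatives the adjusted p in limma ran from 0.0026 to 0.79. The sign of the uncalled Il10rb turned under cyclic loess (0.084 log2), in the deposited table (0.026), without Pak1-/- replicate 1 (0.06) and without Pak1+/+ replicate 2 (0.051), and lay between -0.064 and 0.06 over left-out arrays. That of the uncalled Ifnar2 turned with processed signals scaled to the 75th percentile (-0.022) and without Pak1+/+ replicate 1 (-0.011), with -0.011 to 0.109 over left-out arrays. The cause was not tested.

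In the counts that follow, the other pathway genes include the listed neighbours of the receptor cluster on chromosome 16. At an adjusted p under 0.01, the other pathway genes called lower fell from 21 to 13. All probes called higher and lower fell from 6353 and 7787 to 4193 and 4704. With a 2-fold limit added, these were 3, 1889 and 1524, and the described genes called higher went from 3 to 1, with the calls of Ifnar1 and Ifngr2 lost. Leaving out 1 array gave 3 to 4 described genes higher and 2 lower, 53 to 56 other pathway genes higher (57 with all arrays) and 15 to 21 lower, and 4773 to 5653 probes higher and 5535 to 6517 lower. With the replicate block, 3 described genes were higher and 2 lower, Socs2 had an adjusted p of 0.00056 in limma, and no call of the 9 genes changed. The share of called genes that were higher was 44.7%, and 52.2% under cyclic loess.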
